A study of Mus musculus with 6 samples.

Results

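The genes described here are mouse imprinted genes, of which many control growth before birth. They were taken from a list of 42 symbols, and a gene entered when the platform annotation of its probe set carried a listed symbol or an older name of it. A total of 40 of the 42 were found among the 24675 genes measured, of which 38 matched by symbol and 2 through an older name (Nespas, listed as Gnasas1, and Ddc8, listed as Cep295nl). Zrsr1 and Snurf were not analysed here. Of the 40, 21 are known to be transcribed from the paternal allele and 17 from the maternal allele. Gnas, whose transcripts differ in their parental origin, and Ddc8, for which no parental class was assigned, were kept apart.

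The samples were 3 ventral and 3 dorsal pieces of tissue from C57Bl/6 mouse embryos at embryonic day 10.5, with no transgene, treatment or mutation named in the labels. The ventral pieces lay beneath the dorsal aorta, where blood stem cells first arise, and the dorsal pieces lay between the aortic roof and the notochord. Both were cut by laser from stained 20 μm frozen sections of the same embryos, and 200 to 1000 pg of RNA per sample was amplified before hybridisation to Affymetrix Mouse Gene 2.0 ST arrays. The number of embryos behind each sample is unknown here, and the spread between arrays may be partly technical.

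Genomic imprinting marks a gene by DNA methylation in the egg or the sperm, so that the embryo transcribes it mainly from the allele of a known parent. Imprinted genes lie in clusters that share a control region, and many act on growth: paternally expressed genes such as Igf2 tend to promote it, while maternally expressed genes such as Igf2r, Grb10 and Cdkn1c tend to restrain it. Several are strongly transcribed in embryonic mesoderm and are turned down after birth. For some, among them Ube3a in neurons and Ascl2 in the placenta, the parental bias is known from particular tissues. An array sums the transcripts of both alleles, and the embryos were of an inbred strain, so parental origin was not measured and the 2 classes are background knowledge.

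The array medians lay between 3.20 and 3.27 on the log2 scale of the deposited signals. Correlations across genes ran from 0.887 to 0.898 between ventral arrays and from 0.813 to 0.828 between dorsal arrays, so the dorsal arrays differed more among themselves. Of the marker lists, the sclerotome list stood apart between the sides in its summed signal, though limma called 0 of its genes (lowest adjusted p 0.435). Ventral minus dorsal differences were negative in 10 of its 11 measured genes, against 14302 of 24675 over all genes. They ran from -1.40 for Twist1 to 0.17 for Meox2, with -0.02 for Pax1. The groups did not overlap in 36.4% of the list, against 18.7% of all genes. The summed linear signal was 144 to 189 in ventral arrays, against 257 to 270 in dorsal arrays. Bright genes weigh most in such a sum, and Twist1 had the highest mean signal of the list (5.82, log2). The sums of the other lists overlapped between the sides. They were 141 to 171 in ventral and 158 to 178 in dorsal arrays for splanchnic mesoderm, and 132 to 138 in ventral and 117 to 149 in dorsal arrays for coelomic epithelium and gonad. Notochord markers summed to 165 to 201 in ventral and 172 to 219 in dorsal arrays, and neural tube and neuron markers to 113 to 362 in ventral and 114 to 152 in dorsal arrays. Endothelial markers gave 111 to 130 in ventral and 130 to 144 in dorsal arrays, and liver markers 124 to 145 in ventral and 117 to 143 in dorsal arrays. Erythroid markers were bright and varied most, with sums of 556 to 10212 in ventral and 1830 to 7178 in dorsal arrays. Skeletal muscle markers also overlapped, at 109 to 122 in ventral and 97.9 to 129 in dorsal arrays. Most markers had signals in the dim part of the range.

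No imprinted gene passed the test between the ventral and dorsal sides of the aorta, and Mcts2 had the smallest p. Limma called 0 of the 40 genes at an adjusted p under 0.05 (background 0% of 24675 genes, or 0.00405% without the replicate block). At an unadjusted p under 0.05 there were 2 of 40 genes, Mcts2 and Dlk1, or 5% of them, against 10.2% of all genes. Both had lower ventral signals, a direction that held 5.90% of all genes at this p, and 0 of 40 had higher ventral signals, a direction that held 4.32%. The shares of imprinted genes were thus no larger than those of genes in general. In these pieces of tissue, fewer cells of a type and less RNA per cell cannot be told apart.

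Counted by overlap of the groups, every ventral array lay above every dorsal array in 1 of the 40 genes (Igf2r, against 6.74% of all genes) and below every dorsal array in 2 (Mcts2 and Copg2, against 12.0%). The difference had the same sign in all 3 pairs of equal replicate number in 10 of 40 genes, or 25%, against 35.0% of all genes. Of these, Igf2r, Rtl1 and Nap1l5 were higher and Mcts2, Dlk1, Usp29, Impact, Copg2, Cdkn1c and Phlda2 lower in ventral arrays. The difference was within 0.5 on the log2 scale in 35 of the 40 genes, or 87.5%, against 86.5% of all genes. Its 95% interval lay within a 2-fold change either way in 32, or 80%, against 80.1% of all genes. The shares within 0.5 and within a 2-fold change were close to those of genes in general. Those of separate groups (7.5% against 18.7% of all genes, both directions) and of equal sign were smaller.

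**Figure D1:**
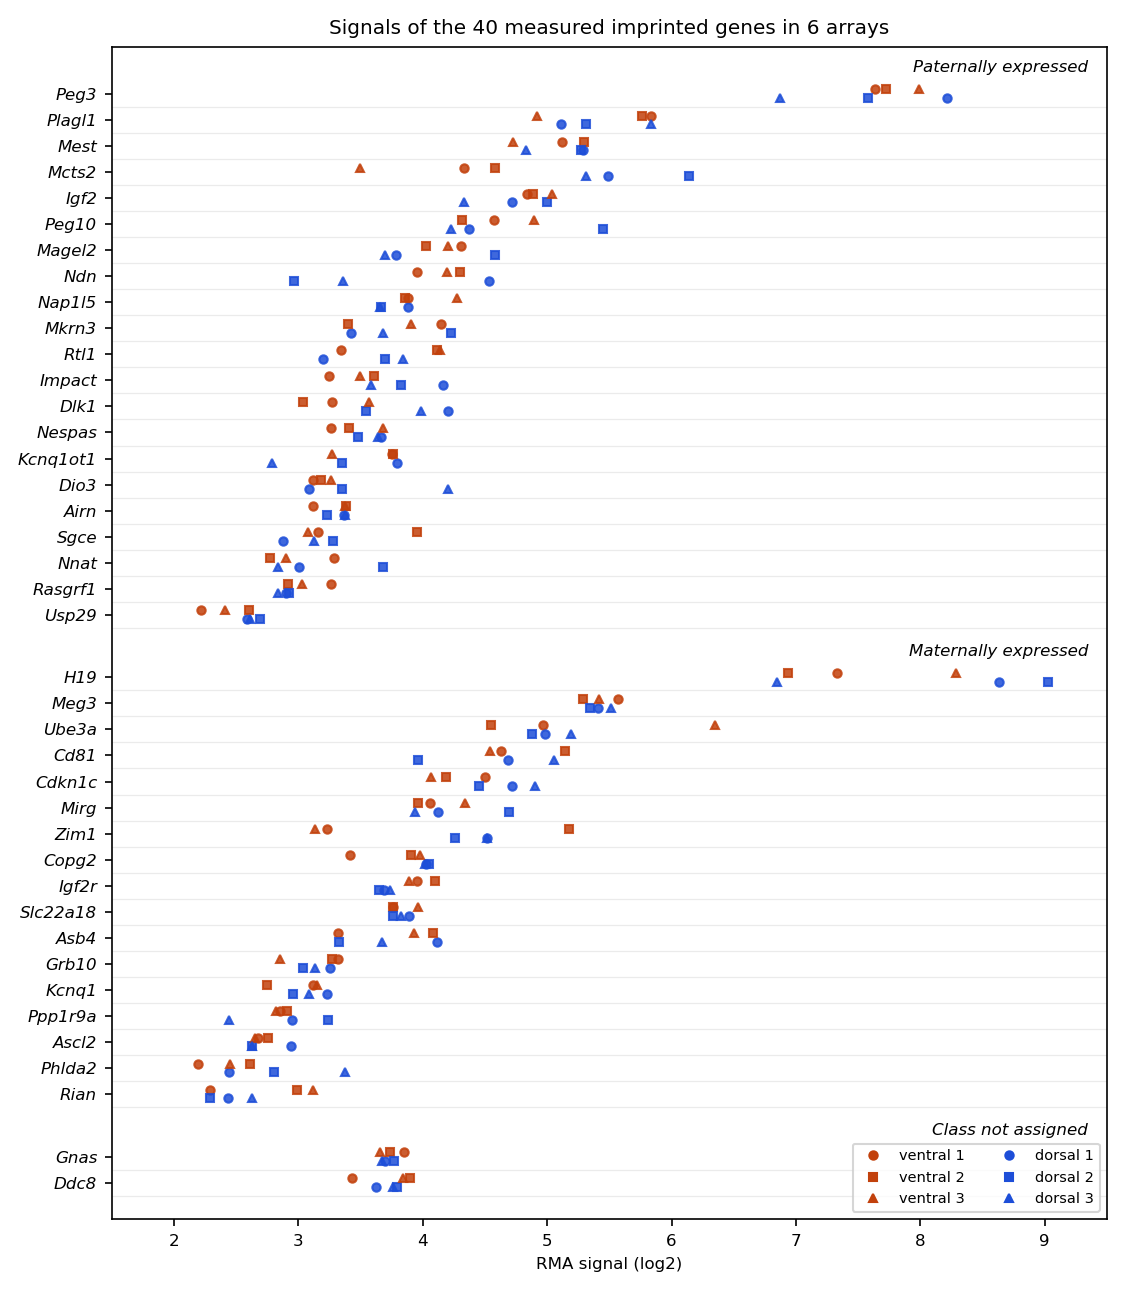
Deposited RMA signal (log2) of each of the 40 imprinted genes in the 3 ventral arrays (orange) and the 3 dorsal arrays (blue), with a marker shape for each replicate number and the genes ordered by mean signal within each class. H19 and Peg3 had the highest signals, and the colours overlap for all genes but Igf2r, Mcts2 and Copg2.

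Neither parental class leaned to a side. The median ventral minus dorsal difference of the 21 paternally expressed genes was 0.04 (log2), with 11 positive and 10 negative values between -1.51 for Mcts2 and 0.53 for Ndn. That of the 17 maternally expressed genes was -0.02, with 8 positive and 9 negative values between -0.65 for H19 and 0.35 for Rian. Over all genes the median was -0.06, with 10373 positive and 14302 negative values. Within the pairs of number 1, 2 and 3 the medians were 0.01, -0.07 and 0.07 for the paternally expressed and -0.13, -0.06 and 0.06 for the maternally expressed genes. Neither class kept the same sign in all 3 pairs. The medians describe genes that share arrays and clusters, and no test was made on them.

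**Figure D2:**
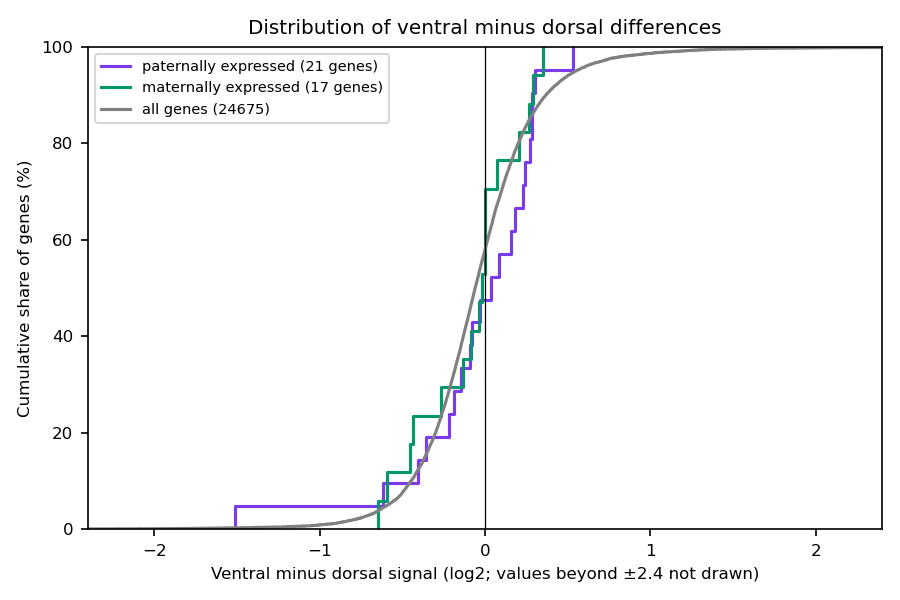
Cumulative share of genes (%) against the ventral minus dorsal difference (log2) for the 21 paternally expressed genes (violet), the 17 maternally expressed genes (green) and all 24675 genes (grey). The medians are 0.04, -0.02 and -0.06 in that order, and the violet step at -1.51 is Mcts2.

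**Figure D3:**
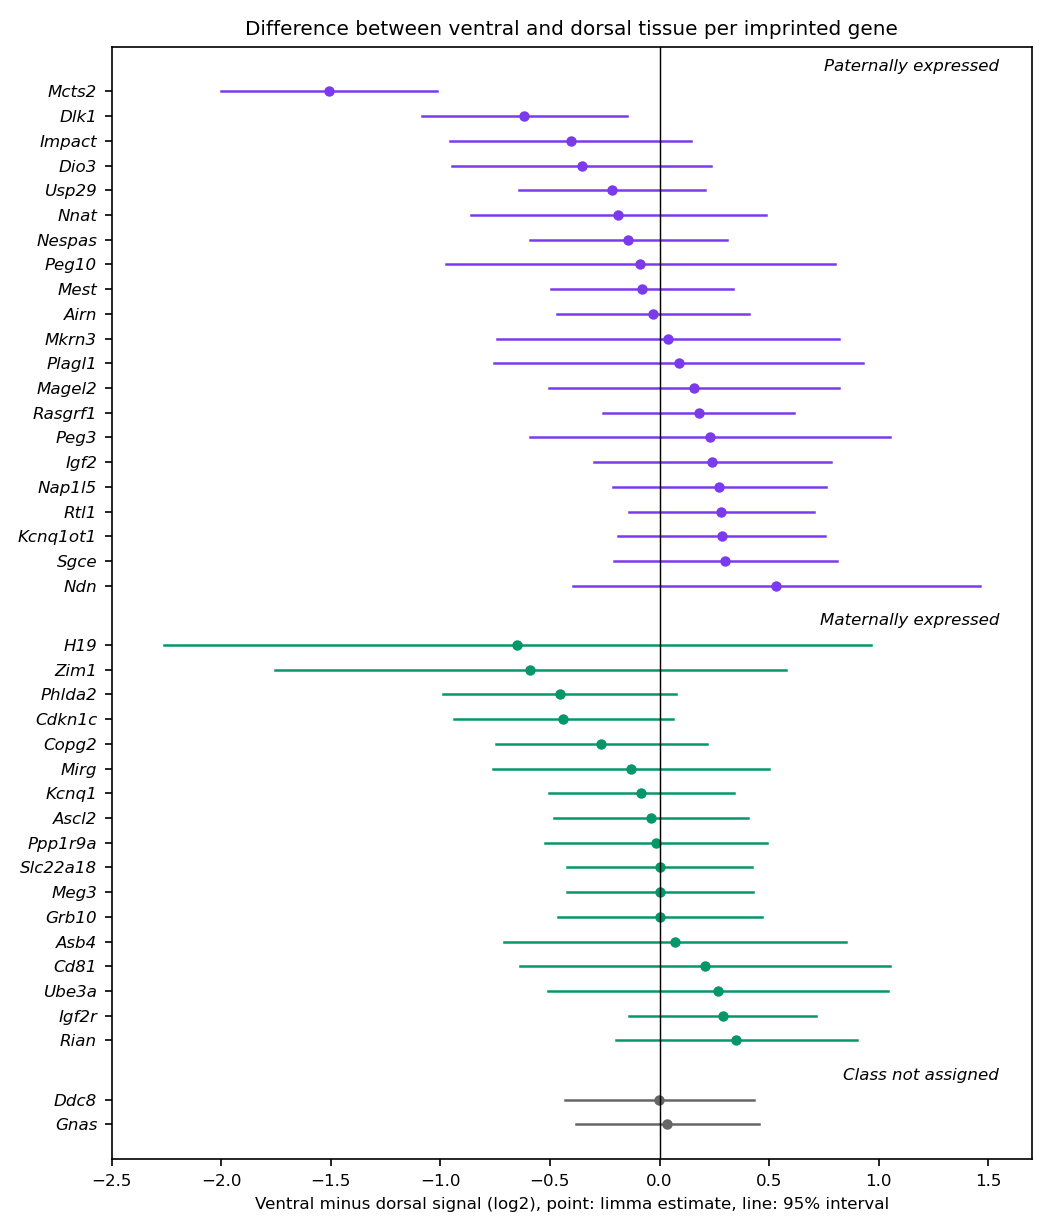
Ventral minus dorsal difference (log2) of each imprinted gene as estimated by limma with the replicate block (point) and its 95% interval (line), unadjusted for the number of genes, by parental class. The intervals of Mcts2 and Dlk1 lie below 0, and those of H19 and Zim1 are the widest.

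Mcts2, a retrogene that arose by reverse transcription of the X-linked Mcts1 and lies within an intron of H13, is transcribed from the paternal allele. It had 4.34, 4.58 and 3.50 in the ventral arrays of replicate 1, 2 and 3, against 5.49, 6.14 and 5.32 in the dorsal arrays (log2 signal). All ventral values lay below all dorsal values, the nearest being ventral 2 and dorsal 3. The difference was -1.51 ± 0.20 (SE), a 2.85-fold lower ventral signal with a 95% interval of -2.0 to -1.02, and the limma adjusted p was 0.239. It therefore did not pass the threshold over all genes. The direction was shared by each of the 3 pairs.

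Mcts1, the parent gene, which encodes a translation factor, also had lower ventral values. Its signals were 4.76, 4.75 and 4.41 in ventral arrays, against 4.96, 5.67 and 6.34 in dorsal arrays. The groups did not overlap, although ventral 1 and dorsal 1 lay close together, and the difference was -1.01 ± 0.34 (SE) with a limma adjusted p of 0.464. H13, the host gene, had 3.52, 3.14 and 3.36 in ventral arrays, against 3.30, 3.13 and 3.13 in dorsal arrays, a difference of 0.15 ± 0.17. The interval of the host ran from -0.27 to 0.57 and included 0, while retrogene and parent were lower in ventral arrays. A retrogene resembles its parent in sequence, and whether the probe sets of Mcts2 and Mcts1 bind each other's transcripts was not tested.

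**Figure D4:**
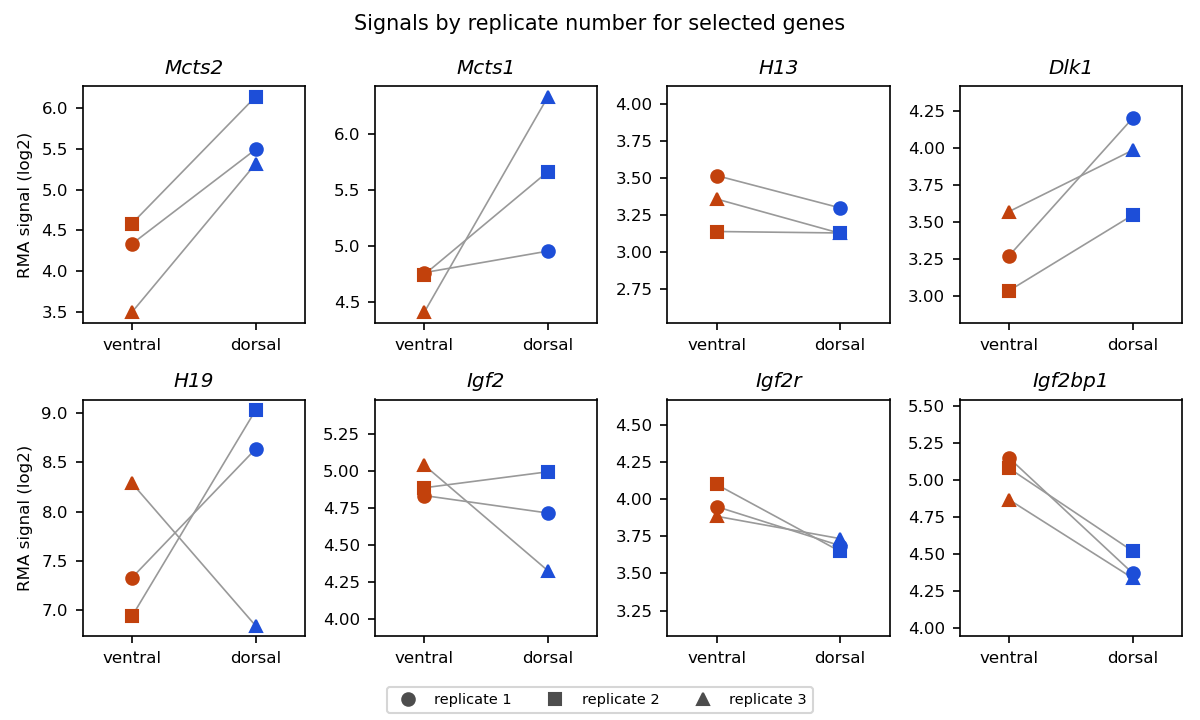
Signals (log2) of 8 genes in ventral (left, orange) and dorsal (right, blue) arrays, with lines joining equal replicate numbers; the vertical axes differ between panels and do not start at 0. Mcts2 and Mcts1 are lower in all ventral arrays while H13 is not, H19 runs the other way at replicate 3, and Igf2bp1 is higher in all ventral arrays.

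The sequence before the annotated start is shown for the genes at an unadjusted p under 0.05 or with groups that did not overlap. It shows where CpG pairs, which can be methylated, lie before the start. Methylation was not measured, and the control region of a cluster can lie elsewhere. Each run is the 250 bases upstream of the first listed start in RefSeq on GRCm38.p6, read 5′ to 3′ on the gene's strand, with CpG pairs in capitals.
Mcts2, chr2:152686898-152687147, plus strand: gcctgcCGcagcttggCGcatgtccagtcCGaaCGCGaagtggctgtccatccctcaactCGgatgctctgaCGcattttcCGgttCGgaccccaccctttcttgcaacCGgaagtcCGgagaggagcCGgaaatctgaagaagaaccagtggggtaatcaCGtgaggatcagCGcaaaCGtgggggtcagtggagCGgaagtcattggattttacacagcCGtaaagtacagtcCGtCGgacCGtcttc
Dlk1, chr12:109452573-109452822, plus strand: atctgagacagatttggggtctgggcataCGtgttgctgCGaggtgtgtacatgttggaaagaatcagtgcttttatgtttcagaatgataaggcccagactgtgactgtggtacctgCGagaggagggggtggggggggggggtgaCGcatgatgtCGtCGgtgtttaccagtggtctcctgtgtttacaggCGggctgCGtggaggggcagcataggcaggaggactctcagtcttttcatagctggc
Igf2r, chr17:12769707-12769956, minus strand: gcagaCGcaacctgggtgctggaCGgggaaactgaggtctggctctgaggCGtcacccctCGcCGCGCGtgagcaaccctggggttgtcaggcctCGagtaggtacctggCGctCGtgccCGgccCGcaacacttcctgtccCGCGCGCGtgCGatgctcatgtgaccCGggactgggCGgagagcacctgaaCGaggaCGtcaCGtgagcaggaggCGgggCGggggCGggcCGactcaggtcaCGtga
Copg2, chr6:30896795-30897044, minus strand: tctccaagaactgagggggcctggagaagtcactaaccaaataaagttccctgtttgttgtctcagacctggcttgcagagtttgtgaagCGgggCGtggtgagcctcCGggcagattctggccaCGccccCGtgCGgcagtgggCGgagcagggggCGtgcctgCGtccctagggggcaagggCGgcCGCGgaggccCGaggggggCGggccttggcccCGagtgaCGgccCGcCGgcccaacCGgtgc

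These 250 bases held 20 CpG pairs at Mcts2, 27 at Igf2r, 19 at Copg2 and 8 at Dlk1. Whether any of these stretches carries an imprint was not tested. Start regions of 300 bases (250 before and 50 after the start) were found in RefSeq for 31 of the 40 genes, taking the first listed for each. The median number of CpG pairs was 17 in the imprinted genes, 14 in the 16 paternally and 23 in the 14 maternally expressed ones. It was 7 over all 27025 genes with a region in RefSeq, of any kind and whether or not measured here. Whether the first listed start is the imprinted one was not checked. Counts ran from 0 at Rian to 48 at Ppp1r9a. The letters TGCCGC, searched on both strands as the core bound by the imprint-protecting protein ZFP57, were in 8 of the 31 regions, or 25.8%, against 11.6% of all regions; the motif itself contains a CpG pair and so is commoner where CpG pairs are dense. Its holders included Mcts2, Copg2, Meg3, Grb10 and Plagl1. Such a match describes the letters only.

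Among growth factors and their receptors, Igf2, the fetal insulin-like growth factor, had 4.84, 4.89 and 5.04 in ventral arrays, against 4.72, 5.00 and 4.33 in dorsal arrays. The groups overlapped, with dorsal 3 lowest of all, and the difference was 0.24 ± 0.22 (95% interval -0.30 to 0.78). It was 0.06 without dorsal replicate 3 and 0.0050 without both arrays of number 3. Igf2r, the mannose 6-phosphate receptor that removes IGF2 from the cell surface, had 3.95, 4.10 and 3.89 in ventral arrays, against 3.69, 3.65 and 3.74 in dorsal arrays. These groups did not overlap, but they differed by only 0.29 ± 0.17, and the limma adjusted p was 0.585. Airn, the antisense transcript that silences the paternal Igf2r, averaged 3.29 ± 0.15 in ventral and 3.32 ± 0.08 in dorsal tissue (SD, n = 3 each). Igf2r and Airn overlap on opposite strands, and the strand that the amplified material represents was not checked.

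Dlk1, a membrane protein related to Notch ligands and a paternally expressed growth regulator, had the second smallest p of the 40. Its signals were 3.27, 3.04 and 3.57 in ventral arrays, against 4.20, 3.55 and 3.99 in dorsal arrays. The mean over all arrays was 3.60, under 4.66, the 95th percentile of the means of olfactory and vomeronasal receptor genes. The groups overlapped narrowly, ventral 3 lying just above dorsal 2, while each pair had the lower value in the ventral array. The difference was -0.62 ± 0.19 (95% interval -1.09 to -0.15), and the limma adjusted p was 0.444. In 5 of the 9 fits that left out arrays the unadjusted limma p of Dlk1 was over 0.05, reaching 0.105 without both arrays of number 1. The summed signal of the sclerotome markers, in which Twist1 weighs most, was lower in ventral arrays too, with no single marker called. The part of these markers in the values of Dlk1 and Mcts2 was not tested.

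Among restrainers of growth, Cdkn1c, the cyclin-dependent kinase inhibitor p57, had 4.50, 4.19 and 4.07 in ventral arrays, against 4.72, 4.45 and 4.90 in dorsal arrays. Ventral 1 lay above dorsal 2, and the difference was -0.44 ± 0.20, with an interval of -0.94 to 0.06 that included 0, and it was -0.24 without both arrays of number 3. Grb10, an adaptor that damps insulin and IGF receptor signalling, had 3.32, 3.27 and 2.85 in ventral arrays, against 3.26, 3.04 and 3.14 in dorsal arrays. Its difference was 0.00 ± 0.19, with an interval of -0.46 to 0.47. Phlda2, which limits growth of the placenta, averaged 2.42 ± 0.21 in ventral and 2.87 ± 0.47 in dorsal tissue, a difference of -0.45 ± 0.22. Phlda2 signals were among the dimmest of the 40 genes.

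Among transcription factors, Plagl1, a zinc finger protein that activates other imprinted genes, had 5.83, 5.76 and 4.92 in ventral arrays, against 5.11, 5.31 and 5.83 in dorsal arrays. The groups overlapped throughout, and the pair of number 3 ran opposite to the others. Peg3, a zinc finger protein, was among the brightest members, with 7.64, 7.73 and 7.99 in ventral arrays, against 8.21, 7.58 and 6.87 in dorsal arrays. Its dorsal values enclosed all ventral values, and the difference was 0.23 ± 0.33. Ascl2, a basic helix-loop-helix factor of the trophoblast, averaged 2.69 ± 0.05 in ventral and 2.73 ± 0.18 in dorsal tissue, in the dim part of the range.

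The noncoding RNA H19, which shares enhancers with Igf2 and is a precursor of a microRNA, had the highest mean signal of the 40 genes and the widest interval. It had 7.33, 6.94 and 8.29 in ventral arrays, against 8.63, 9.03 and 6.84 in dorsal arrays. Dorsal 1 and dorsal 2 lay above all ventral arrays and dorsal 3 lay below all of them, so the pairs of number 1 and 2 ran opposite to the pair of number 3. The difference was -0.65 ± 0.65, with an interval of -2.26 to 0.96. Without both arrays of number 3 it was -1.70 with a limma adjusted p of 0.541, without dorsal replicate 3 alone -1.31, and without both arrays of number 2 it was 0.07. Dorsal 3 also held the lowest dorsal signal of Peg3 and Igf2, and it was the lowest dorsal array in 17 of the 40 genes, or 42.5%, against 32.5% of all genes.

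In the Dlk1-Dio3 cluster the maternal noncoding RNAs had smaller differences than Dlk1. Meg3, a long noncoding RNA, had 5.57, 5.29 and 5.42 in ventral arrays, against 5.41, 5.35 and 5.51 in dorsal arrays. Its difference was 0.00 ± 0.17, and the interval of -0.42 to 0.43 lay within a 2-fold change. Rian, which carries small nucleolar RNAs, averaged 2.80 ± 0.44 in ventral and 2.45 ± 0.17 in dorsal tissue, and Mirg, a host of microRNAs, 4.12 ± 0.20 in ventral and 4.25 ± 0.39 in dorsal tissue. Of the other paternally expressed genes of the cluster, Rtl1, a retrotransposon-derived gene of the placental capillaries, had a difference of 0.28 ± 0.17 and Dio3, the deiodinase that inactivates thyroid hormone, -0.36 ± 0.24. Whether the differences of Dlk1 and Meg3 are unequal was not tested.

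The microRNA genes of the same cluster, processed from the maternal transcripts, were read from 42 of 46 listed loci. Limma called 0 of them at an adjusted p under 0.05, and 6 of 42 had an unadjusted p under 0.05, or 14.3% against 10.2% of all genes, of which 5 were lower and 1 higher in ventral arrays. The listed mature arms of the 4 loci with the smallest p are shown as RefSeq gives them on chromosome 12 of GRCm38.p6, 5′ to 3′, with the seed (bases 2 to 8) in capitals, by which a microRNA pairs with its targets.
mmu-miR-376c-5p: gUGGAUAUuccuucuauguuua
mmu-miR-329-5p: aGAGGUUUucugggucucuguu
mmu-miR-329-3p: aACACACCcagcuaaccuuuuu
mmu-miR-665-5p: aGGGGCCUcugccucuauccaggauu
mmu-miR-665-3p: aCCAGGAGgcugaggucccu
mmu-miR-381-5p: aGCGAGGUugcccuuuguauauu
mmu-miR-381-3p: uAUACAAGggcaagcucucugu

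All of these seeds differ from each other. Mir376c had 1.43, 1.60 and 1.60 in ventral arrays, against 2.13, 2.31 and 2.14 in dorsal arrays, a difference of -0.65 ± 0.17 (limma adjusted p 0.437) at signals near the lowest of the arrays. Mir665 differed by -1.49 ± 0.53, with 4.44, 6.78 and 5.31 in ventral arrays, against 7.36, 6.73 and 6.91 in dorsal arrays, which overlap at ventral 2. Mir329 and Mir381 differed by -0.48 ± 0.17 and -0.45 ± 0.17, with groups that did not overlap. Such probe sets read transcripts from the locus, and the mature microRNA was not measured by itself.

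In the Mest and Peg10 clusters, Mest, a hydrolase-like protein of embryonic mesoderm, had 5.12, 5.29 and 4.73 in ventral arrays, against 5.29, 5.27 and 4.83 in dorsal arrays. Replicate 3 was lowest on both sides, and the difference of -0.08 ± 0.17 lay inside the spread. Copg2, a coat protein of Golgi vesicles that overlaps Mest in antisense, had 3.41, 3.90 and 3.98 in ventral arrays, against 4.02, 4.05 and 4.01 in dorsal arrays. The groups did not overlap, though ventral 3 lay next to dorsal 3, and the difference of -0.26 ± 0.19 shrank to -0.09 without ventral replicate 1. Peg10, a retrotransposon-derived gene needed for the placenta, averaged 4.59 ± 0.29 in ventral and 4.68 ± 0.67 in dorsal tissue, with dorsal 2 highest at 5.45. Sgce, a sarcoglycan, Ppp1r9a, an actin-binding phosphatase regulator, and Asb4, a ubiquitin ligase adaptor, had differences of 0.30 ± 0.21, -0.02 ± 0.21 and 0.07 ± 0.32. The intervals of all 3 included 0.

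In the cluster of Prader-Willi and Angelman syndrome genes, the 4 genes among the 40 (Ube3a, Ndn, Magel2 and Mkrn3) had positive differences, without any passing the test. Over all genes, 10373 of 24675 differences were positive. The sign of the 4 did not hold within pairs: 0 of them kept it in all 3, against 35.0% of all genes. Their medians were 0.25, -0.45 and 0.67 in the pairs of number 1, 2 and 3. Snrpn, Peg12 and Atp10a of the same region, read with the further imprinted genes, also had positive differences, of 0.58, 0.10 and 0.02. Snrpn was positive in each pair (0.60, 0.99 and 0.15), while Peg12 and Atp10a were not. Ube3a, a ubiquitin ligase, had 4.97, 4.55 and 6.35 in ventral arrays, against 4.99, 4.88 and 5.20 in dorsal arrays. Ventral 3 stood far above the others, and without both arrays of number 3 the difference of 0.27 ± 0.31 became -0.18. Ndn, a MAGE-family protein that restrains proliferation of neural cells, had 3.96, 4.30 and 4.20 in ventral arrays, against 4.53, 2.97 and 3.36 in dorsal arrays. Ndn had the largest positive difference of the 40 genes, 0.53 ± 0.38, and dorsal 1 exceeded every ventral array. Magel2, of the same family, and Mkrn3, a RING finger protein, differed by 0.16 ± 0.27 and 0.04 ± 0.32.

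The remaining genes had the following values. Cd81, a tetraspanin of the cell surface, had 4.63, 5.15 and 4.54 in ventral arrays, against 4.68, 3.96 and 5.05 in dorsal arrays, which overlapped. In the same cluster Kcnq1, a potassium channel, Kcnq1ot1, the antisense RNA that silences its neighbours, and Slc22a18, a transporter, differed by -0.08 ± 0.17, 0.28 ± 0.19 and 0.00 ± 0.17. Beside Peg3, Usp29, a ubiquitin protease, differed by -0.22 ± 0.17. Zim1, a zinc finger gene, had 3.23, 5.17 and 3.13 in ventral arrays, against 4.52, 4.26 and 4.52 in dorsal arrays. Ventral 2 was above all dorsal arrays and the other ventral arrays below them, so the interval was wide at -1.76 to 0.58. Gnas, the stimulatory G protein subunit, averaged 3.75 ± 0.09 in ventral and 3.71 ± 0.05 in dorsal tissue, and its antisense RNA Nespas 3.45 ± 0.21 in ventral and 3.59 ± 0.10 in dorsal tissue. Which of the Gnas transcripts the probe set reads was not checked.

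Outside the large clusters, Impact, a regulator of translation under stress, averaged 3.45 ± 0.18 in ventral and 3.86 ± 0.29 in dorsal tissue, a difference of -0.41 ± 0.22. Nap1l5, a retrogene related to nucleosome assembly proteins, averaged 4.01 ± 0.24 in ventral and 3.73 ± 0.13 in dorsal tissue, and its host gene Herc3 differed by 0.01 ± 0.23. Nnat, a membrane protein of neural and endocrine cells, averaged 2.99 ± 0.27 in ventral and 3.17 ± 0.45 in dorsal tissue, and its host Blcap differed by -0.27 ± 0.19. Rasgrf1, a Ras exchange factor, averaged 3.07 ± 0.18 in ventral and 2.89 ± 0.05 in dorsal tissue, and Ddc8 3.72 ± 0.25 in ventral and 3.72 ± 0.09 in dorsal tissue.

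A mean signal under 4 was found in 26 of the 40 genes, or 65%, against 81.4% of all genes, and 9 (H19, Peg3, Plagl1, Meg3, Ube3a, Mest, Mcts2, Igf2 and Cd81) exceeded 4.66, the 95th percentile of the means of 1365 olfactory and vomeronasal receptor genes, which are not known to be active in this tissue. These 9 were 22.5% of the imprinted genes, against 7.03% of all genes above that mark. Peg10 lay just below that mark. Signals of different probe sets depend on their probes, so this places brightness and not transcript number. A small difference at a dim gene therefore does not show equal transcript levels. The standard deviation was larger over the dorsal than the ventral arrays in 18 of 40 imprinted genes, or 45%, against 66% of all genes.

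Genes that act with the imprinted growth genes were examined from lists. The IGF list held ligands, receptors and binding proteins, and also Igf2bp1, Igf2bp3, Plag1, Hmga2, Lin28a and Lin28b, so its shares are not those of the IGF pathway alone. Of its 20 measured genes limma called 0 at an adjusted p under 0.05. At an unadjusted p under 0.05 there were 2, or 10% against 10.2% of all genes. The groups did not overlap in 8 of 20, or 40%, against 18.7% of all genes, 2 with higher and 6 with lower ventral arrays. The sign was the same in all 3 pairs in 10 of 20, or 50%, against 35.0% of all genes. Igf2bp1, which binds Igf2 messenger RNA and other transcripts, had 5.15, 5.08 and 4.86 in ventral arrays, against 4.37, 4.52 and 4.34 in dorsal arrays. The groups lay clearly apart, with a difference of 0.62 ± 0.17 and a limma adjusted p of 0.437. Igfbp4, a secreted binding protein that holds IGFs from their receptor, had 4.15, 3.97 and 3.98 in ventral arrays, against 6.03, 4.40 and 4.82 in dorsal arrays. Its difference was -1.05 ± 0.30, and dorsal 1 was far above the other dorsal arrays. Igfbp7 (-0.54 ± 0.22) and Igf2bp3 (-0.45 ± 0.19) were lower in all ventral arrays, and the list median was -0.18 against -0.06 over all genes.

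Of 22 genes that set or protect imprints limma called 0, and 1 had an unadjusted p under 0.05, or 4.55% against 10.2% of all genes. This was Arid4b, a chromatin protein of imprint control, with 3.94, 4.06 and 4.03 in ventral arrays, against 3.12, 3.25 and 3.71 in dorsal arrays, which did not overlap. The groups were separate in 18.2% of this list, Uhrf1 and Dnmt3a included, against 18.7% of all genes. The next by p were Arid4a (0.52 ± 0.24), Zfp445 (0.40 ± 0.20), which protects imprints with ZFP57, and Uhrf1 (0.34 ± 0.18), which brings the maintenance methyltransferase to DNA. The median of the list was 0.12. Of 32 further imprinted genes 0 were called and 4 had an unadjusted p under 0.05, or 12.5%, namely Begain (0.74 ± 0.25), Ddc (0.67 ± 0.26), Snrpn (0.58 ± 0.22) and Ins2 (-0.63 ± 0.24). Only Ddc, which makes dopamine and serotonin, separated the groups, or 3.12% of these genes. Its values were 3.80, 4.33 and 4.06 in ventral arrays, against 3.68, 3.06 and 3.43 in dorsal arrays. The paralogues of members other than Mcts1 had differences between -0.43 for Dlk2 and 0.42 for Dio1, and Commd1, host of the unanalysed Zrsr1, had 0.34 ± 0.23.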

How the data were processed

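The deposited log2 values, 1 per probe set and array, were made by the authors with Affymetrix Expression Console and RMA, per the submitters' processing notes, which corrects background, equalises the distribution of the arrays and summarises probes. The log base was taken from the values (0.97 to 12.9), and versions and genome build are not given in the sources used here. Of 25429 probe sets 24675 carried 1 gene symbol in the platform annotation, and their Entrez numbers all had an entry in the RefSeq table of GRCm38.p6, used for names.

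Ventral was compared with dorsal tissue on those 24675 genes with limma 3.58.1 (R 4.3.3; lmFit, eBayes), two-sided, with the replicate number as a block, since per the labels each embryo gave both regions. Whether arrays of equal number share an embryo is not said, so a fit with no block was also made. P-values were adjusted by Benjamini-Hochberg over all genes, with a threshold of 0.05. Intervals are 95% and unadjusted. The smallest two-sided p that exact permutation of 3 and 3 arrays allows is 0.1 when replicate numbers are ignored, unlike in the blocked fit. Values in all arrays are given for genes at an unadjusted p under 0.05, with groups that do not overlap or a mean above the receptor mark, and for Igf2, H19, Dlk1, Meg3, Cdkn1c, Grb10 and Plagl1; other values illustrate their cluster. Of other lists, up to 4 genes with the smallest p are named, and further genes were picked after their values were seen. The members and lists were chosen with earlier results of these data known. Probe intensities and detection calls were not used here, nor were scan dates. The number of arrays limits the precision.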

Additional observations from a re-analysis of the deposited data

How the results depend on the processing

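Of the 40 imprinted genes limma called 0 in each of the alternatives run: no replicate block, cyclic loess, arrays centred on their median, removal of genes with a mean below the 25th percentile or below the median, a variance trend with robust moderation, array weights, and arrays left out. Mcts2 stayed lower in ventral arrays in all 16 alternatives, between -1.73 and -1.19, with limma adjusted p from 0.245 to 0.568, and Dlk1 between -0.80 and -0.46. Over all genes the count called was 1 with no replicate block and 0 to 5 with arrays left out, namely 5 without both arrays of number 1, 2 without number 3, 3 each without ventral replicate 1, ventral replicate 2 or dorsal replicate 3, and 1 without ventral replicate 3. With arrays left out, the median difference ranged from -0.052 to 0.20 for paternally and from -0.16 to 0.022 for maternally expressed genes, the highest paternal value being without dorsal replicate 2. Single genes were refitted only for the 14 with values given in all arrays by rule. Among these, differences that changed sign with arrays left out ranged from -0.28 to 0.57 for Cd81, -0.11 to 0.15 for Grb10, -1.70 to 0.070 for H19, -0.078 to 0.071 for Meg3, -0.23 to 0.080 for Mest, -0.21 to 0.63 for Peg3, -0.23 to 0.59 for Plagl1 and -0.26 to 0.64 for Ube3a, while those of Igf2 (0.0050 to 0.42), Igf2r (0.21 to 0.36), Cdkn1c (-0.56 to -0.24) and Copg2 (-0.38 to -0.089) kept theirs. Meg3 was -0.074 after cyclic loess and Grb10 -0.00094 with array weights. The cause was not tested. The count of imprinted genes at an unadjusted p under 0.05 ran from 2 to 4, with 4 without dorsal replicate 2. Mcts2 was among them in 9 of 9 leave-out fits and Dlk1 in 4 of 9. Cyclic loess moved the median of all genes from -0.060 to -0.0048 and median centring to -0.016, and 23 and 24 of the 40 differences were then positive. Fits without a single array had no block; where an arm kept 2 arrays its spread was pooled with the other.

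The block rests on the labels. Deviations from the group means correlated across genes at 0.04, -0.01 and 0.06 between arrays of number 1, 2 and 3, and 4 of 6 arrays correlated best with the array of their own number on the other side, so the data give no clear pairing. Without the replicate block 0 imprinted genes were called, and the limma adjusted p was 0.279 for Mcts2 and 0.399 for Dlk1. Signal over background limits the dim genes, for which no detection calls were used.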
